A study of Mus musculus with 24 samples.

Results

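The 10 genes followed here belong to the glutathione and thioredoxin antioxidant systems and were read through 24 RNA sequencing libraries of cells sorted from mouse epididymal fat: Gclm, Gclc, Gsr, Txn1, Txnrd1, Prdx1, Srxn1, Nqo1, Akr1b8 and Nfe2l2. They are the rows with these symbols, 10 of the 21063 gene rows that both deposited count tables share. The rule that picks them uses symbols, but the set was chosen with earlier results of these data known. Its counts against all genes are therefore descriptive. The libraries fall into 8 groups of 3. M1 macrophages, M2 macrophages and adipose progenitors (AP) came from Cold mice, moved from thermoneutrality to 18 °C for 7 days and to 4 °C for 7 more and killed on day 14, and from Warm mice kept at 29-30 °C. M1 and M2 macrophages also came from thermoneutral mice given bFKB1, an antibody that activates the FGF21 receptor complex, at 10 mg/kg into the peritoneum and harvested after 8 days. All mice were male C57BL/6J on a high-fat diet (for Cold and Warm from 6 weeks of age) that weighed 38-42 g at 18-20 weeks. Each Cold and Warm library pools sorted cells of 5 mice, pooling is not stated for bFKB1, and the sort gates are not in the labels. No vehicle group is among the labels, so Warm is the reference for bFKB1. The bFKB1 libraries stand in a table of their own, so a difference between tables and the effect of the antibody cannot be told apart.

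Cells clear peroxides and other electrophiles through a pair of chains that both spend NADPH. Glutathione is made by glutamate-cysteine ligase (Gclc is its catalytic and Gclm its modifier subunit) and brought back to its reduced form by glutathione reductase (Gsr), while thioredoxin (Txn1) is reduced by thioredoxin reductase (Txnrd1) and in turn restores peroxiredoxins such as Prdx1, which sulfiredoxin (Srxn1) rescues after overoxidation. Many of these genes, together with the quinone reductase gene Nqo1 and aldo-keto reductases such as Akr1b8, are known targets of NRF2, the transcription factor encoded by Nfe2l2. NRF2 is held down mainly at the protein level by KEAP1-directed degradation and binds antioxidant response elements with small MAF partners. In obese fat, macrophages gather around dying adipocytes and take up their lipid, and they also handle iron.

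In both macrophage populations most of the target genes rose under both treatments, and Nfe2l2 itself did not pass the test in any of these comparisons. Of the 10 genes, 9 rose under bFKB1 in M1 (as did 12.2% of all genes) and 9 in M2 (5.26%), and 8 rose in Cold M1 (22.4%) and 6 in Cold M2 (4.41%). The largest fold changes belonged to Nqo1 and Akr1b8. In Cold progenitors 2 of the 10 were higher and 3 lower, near the shares of all genes (18.4% and 16.6%).

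The promoters are shown because the binding sequence of NRF2 is short and can be read by eye. RefSeq promoter windows on GRCm38.p6, 250 bases before to 50 bases after a start site, were at hand for 8 of the 10 genes (10 windows, 3 of them for Txnrd1). Windows were searched on both strands for the 9-letter core TGACNNNGC, and for TGAGNNNGC. Capitals mark the matches as they lie on the gene's strand, so a match on the other strand reads as its reverse complement.
Srxn1, chr2:152105274-152105573, plus strand: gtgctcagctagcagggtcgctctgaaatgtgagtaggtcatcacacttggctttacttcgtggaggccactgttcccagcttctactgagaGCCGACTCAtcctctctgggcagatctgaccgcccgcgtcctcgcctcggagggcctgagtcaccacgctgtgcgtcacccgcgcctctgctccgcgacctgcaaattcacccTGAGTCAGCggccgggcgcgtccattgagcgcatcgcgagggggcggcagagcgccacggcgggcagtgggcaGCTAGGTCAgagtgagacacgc
Prdx1, chr4:116685349-116685648, plus strand: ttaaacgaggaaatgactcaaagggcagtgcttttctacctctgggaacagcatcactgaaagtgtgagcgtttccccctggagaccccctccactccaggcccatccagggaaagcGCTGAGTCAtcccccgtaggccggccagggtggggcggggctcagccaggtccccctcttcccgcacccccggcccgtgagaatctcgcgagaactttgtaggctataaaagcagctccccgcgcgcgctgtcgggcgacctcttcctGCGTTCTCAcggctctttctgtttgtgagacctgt
Gclm, chr3:122245307-122245606, plus strand: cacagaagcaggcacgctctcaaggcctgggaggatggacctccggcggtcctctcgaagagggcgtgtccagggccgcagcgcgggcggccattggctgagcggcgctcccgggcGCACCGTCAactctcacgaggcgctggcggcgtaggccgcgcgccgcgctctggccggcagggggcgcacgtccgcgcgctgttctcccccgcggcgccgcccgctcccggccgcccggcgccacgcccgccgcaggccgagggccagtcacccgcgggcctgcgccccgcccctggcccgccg
Nqo1, chr8:107403156-107403455, minus strand: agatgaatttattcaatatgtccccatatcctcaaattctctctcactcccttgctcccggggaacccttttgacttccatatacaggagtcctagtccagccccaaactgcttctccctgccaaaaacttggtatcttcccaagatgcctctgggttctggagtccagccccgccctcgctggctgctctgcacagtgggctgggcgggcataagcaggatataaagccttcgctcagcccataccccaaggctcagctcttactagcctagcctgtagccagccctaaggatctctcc
The Srxn1 window held 3 matches: TGAGTCGGC 158 bases before the start, TGAGTCAGC 45 bases before it and TGACCTAGC 28 bases after it. Prdx1 had TGACTCAGC 133 bases before the start and TGAGAACGC 15 bases after it, and Gclm had TGACGGTGC 134 bases before it. TGACTCCGC occurred in the Nfe2l2 window and TGACAAAGC in 1 of the Txnrd1 windows. TGAGTCAGC and TGACTCAGC also contain the AP-1 motif (TGAGTCA or TGACTCA). With either core, 5 of the 10 windows had a match, each of another gene, against 27.9% of all 32544 windows. TGACNNNGC alone was in 5 of the 10 windows of these genes and in 12.4% of all windows. Nqo1, Akr1b8 and Txn1 had no match, which says only that these letters are not in the windows.

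Gene coordinates below are those of GRCm38 (GENCODE M21). Libraries held 14374696 to 34600782 counts, enough for every one of the 10 genes to pass the filter on low counts in every fit. The lowest count was 13, for Nqo1 in a Warm M2 library. Levels are CPM (counts scaled to the library total), fold changes are log2 values from edgeR's quasi-likelihood fit, and a change counts as a rise or a fall when the p, adjusted by Benjamini-Hochberg over all genes tested, lies under 0.05. The replicates are libraries of sorted cells whose separate origin is not stated, so p-values measure the spread between these libraries, which may be technical. The 12 macrophage markers, none at 0, summed to 12900-17900 CPM in Cold M1, 21500-22200 in bFKB1 M1 and 18500-19400 in Warm M1, to 28100-29000 in Cold M2, 29300-29800 in bFKB1 M2 and 26300-27900 in Warm M2, and to 78-221 in Cold AP and 103-574 in Warm AP. The 26 progenitor markers summed to 16000-44100 CPM in Cold M1, 2810-10000 CPM in bFKB1 M1 and 2680-11800 CPM in Warm M1, with none of the 26 at 0. By the median of these markers the Cold M1 libraries 1, 2 and 3 carried 41.9%, 20.8% and 14.0% of the level in Cold progenitors. The same measure was 7.54%, 2.26% and 3.81% in bFKB1 M1, 2.08%, 7.18% and 1.98% in Warm M1 and 1.09% to 3.28% in M2 libraries. Adipocyte markers, 8 in all and none at 0, summed to 4690-5070 CPM in Cold M1, 4640-5580 in bFKB1 M1 and 3040-3580 in Warm M1, and to 912-1820 in Cold M2, 2100-2310 in bFKB1 M2 and 1070-1430 in Warm M2. Dendritic cell markers (8, none at 0) summed to 167-282 CPM in Cold M1, 128-179 in bFKB1 M1 and 246-353 in Warm M1, and to 113-153 in Cold M2, 108-133 in bFKB1 M2 and 153-197 in Warm M2. Granulocyte and mast cell markers (8, of which 1 was at 0 in each bFKB1 group) summed to 31.2-39.6 CPM in Cold M1, 21.2-25.3 in bFKB1 M1 and 19.7-26.5 in Warm M1, and to 8.26-14.0 in Cold M2, 8.06-16.4 in bFKB1 M2 and 5.07-5.92 in Warm M2. Itgax averaged 894 CPM in Cold M1, 929 in bFKB1 M1 and 779 in Warm M1, and 40.1 in Cold M2, 135 in bFKB1 M2 and 105 in Warm M2. Mrc1 averaged 985 CPM in Cold M1, 1230 in bFKB1 M1 and 1700 in Warm M1, and 6290 in Cold M2, 5120 in bFKB1 M2 and 5760 in Warm M2. The part of these marker shifts in the results was not tested, apart from that of the progenitor markers. In bulk libraries fewer cells of a type and less RNA per cell cannot be told apart. On plain CPM all genes together shifted by a median of -0.25 (log2) for Warm AP against M1 and -0.17 for Warm AP against M2, which the TMM scaling behind the fold changes takes out.

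**Figure D1:**
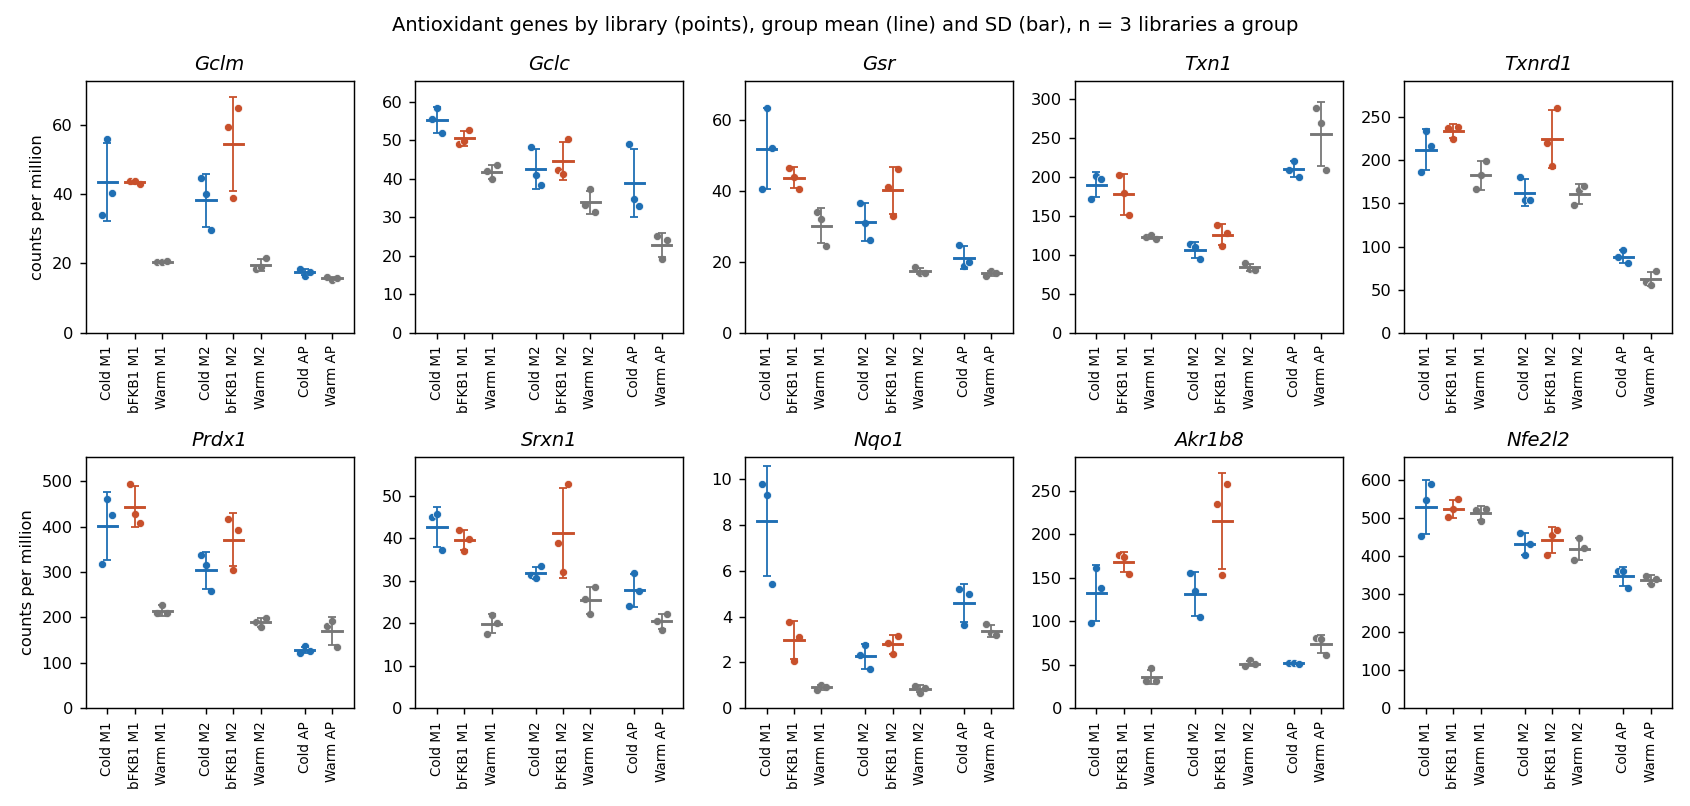
CPM of the 10 genes in each of the 24 libraries (points), with group mean (line) and SD (bar, n = 3), for Cold, bFKB1 and Warm in M1 and M2 and for Cold and Warm in AP; each axis starts at 0 and has its own scale. For Gclm, Gclc, Gsr, Txn1, Prdx1, Srxn1, Nqo1 and Akr1b8 every Cold and bFKB1 macrophage library lies above every Warm library of its population. For Txnrd1 this holds only under bFKB1, and the Nfe2l2 points stay level within a population.

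Per kilobase of exon the genes differed widely in abundance. In Warm M1 the mean level was highest for Nfe2l2 (135 CPM per kb), then Txn1 (117), Prdx1 (70.8), Txnrd1 (25.8) and Akr1b8 (24.2). Gclc (11.1), Gsr (11.0) and Srxn1 (7.06) followed. The modifier subunit Gclm stood at 3.27 CPM per kb, below its catalytic partner, and Nqo1 was lowest at 0.588. In bFKB1 M1 the Akr1b8 level was 112 CPM per kb and that of Nqo1 1.91, and in Cold M1 they were 88.5 and 5.26.

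For glutamate-cysteine ligase, the first enzyme of glutathione synthesis, the fold change of the modifier subunit exceeded that of the catalytic subunit in all 4 macrophage comparisons. The difference between the subunits was not tested. Gclm (chromosome 3, 122245557-122270732, plus strand) had 34.1, 56.1 and 40.4 CPM in Cold M1 and 43.8, 43.7 and 43.0 CPM in bFKB1 M1, against 20.5, 20.5 and 20.7 CPM in Warm M1. In M2 it had 44.8, 40.1 and 29.8 CPM in Cold and 59.3, 39.0 and 64.9 CPM under bFKB1, against 18.5, 18.9 and 21.6 CPM in Warm. Every treated library was above every Warm library of its population, and the Warm M1 libraries were almost alike. The rise was 1.06 (SE 0.17, edgeR adjusted p = 0.00112) in Cold M1 and 1.09 (SE 0.15, 0.00105) in bFKB1 M1. It was 0.90 (SE 0.17, edgeR adjusted p = 0.00959) in Cold M2 and 1.46 (SE 0.15, 0.000432) in bFKB1 M2. These 4 calls were kept whichever library was left out.

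Gclc (chromosome 9, 77754535-77794485, plus strand) averaged 55.2 ± 3.31 CPM in Cold M1 and 50.4 ± 1.93 CPM in bFKB1 M1, against 41.8 ± 1.80 CPM in Warm M1 (SD, n = 3 each). In M2 the means were 42.5 ± 5.08 CPM in Cold and 44.5 ± 4.96 CPM under bFKB1, against 33.8 ± 3.04 CPM in Warm. The treated groups did not overlap Warm, but the distances were small. Gclc rose by 0.38 in Cold M1 (edgeR adjusted p = 0.00801), by 0.28 in bFKB1 M1 (0.0423) and by 0.38 in bFKB1 M2 (0.0266), and its value in Cold M2 was 0.27 (0.108). The bFKB1 M1 call was lost without any 1 of its 6 libraries (adjusted p up to 0.114), and the bFKB1 M2 call without Warm M2 1, Warm M2 3 or bFKB1 M2 3 (up to 0.0808).

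Gsr, which regenerates reduced glutathione, lies on chromosome 8 (33652523-33698163, plus strand). It had 40.6, 63.5 and 52.1 CPM in Cold M1 and 46.5, 44.0 and 40.6 CPM in bFKB1 M1, against 34.0, 32.1 and 24.6 CPM in Warm M1. M2 libraries held 36.7, 31.0 and 26.2 CPM in Cold and 41.3, 33.1 and 46.4 CPM under bFKB1, against 18.5, 16.9 and 16.9 CPM in Warm. Treated and Warm libraries did not overlap in either population, and Warm M2 was tightly grouped. Gsr rose by 0.77 in Cold M1 (SE 0.16, edgeR adjusted p = 0.00334) and by 0.54 in bFKB1 M1 (SE 0.13, 0.0116). In M2 it rose by 0.78 in Cold (SE 0.16, edgeR adjusted p = 0.0141) and by 1.19 under bFKB1 (SE 0.13, 0.000662). The Cold M2 call was lost without Cold M2 1, Cold M2 2, Warm M2 2 or Warm M2 3 (adjusted p up to 0.0625, log2 fold change 0.65 to 0.88 over the 6 omissions).

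In the thioredoxin chain the carrier rose in all 4 macrophage comparisons and its reductase in the bFKB1 ones. Txn1 (chromosome 4, 57943373-57956411, minus strand) had 171, 201 and 198 CPM in Cold M1 and 203, 179.8 and 151 CPM in bFKB1 M1, against 123, 125 and 121 CPM in Warm M1. The M2 levels were 113, 110 and 94.7 CPM in Cold and 138, 112 and 128 CPM under bFKB1, against 89.5, 82.1 and 80.3 CPM in Warm. No treated library overlapped Warm. Txn1 rose by 0.61 in Cold M1 (edgeR adjusted p = 0.000282), 0.54 in bFKB1 M1 (0.00273), 0.27 in Cold M2 (0.0383) and 0.57 in bFKB1 M2 (0.00518). In Cold M2 the call was lost with expected progenitor counts taken off (0.0887), without the filter on low counts, and without Cold M2 1, Cold M2 2, Warm M2 2 or Warm M2 3 (adjusted p up to 0.143).

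Txnrd1 (chromosome 10, 82833951-82897712, plus strand) averaged 212 ± 23.9 CPM in Cold M1 and 234 ± 7.87 CPM in bFKB1 M1, against 183 ± 16.8 CPM in Warm M1 (SD, n = 3 each). In M2 it averaged 163 ± 15.7 CPM in Cold and 225 ± 34.0 CPM under bFKB1, against 161 ± 11.5 CPM in Warm. The Cold libraries overlapped the Warm ones in both populations, and the bFKB1 libraries did not. Under bFKB1 it rose by 0.37 in M1 (edgeR adjusted p = 0.0308) and 0.47 in M2 (0.0239). Under cold its values were 0.20 in M1 (95% interval 0.00 to 0.39, edgeR adjusted p = 0.138) and -0.05 in M2 (-0.25 to 0.14, 0.794). The bFKB1 calls were lost in M1 without Warm M1 1, Warm M1 2 or any bFKB1 M1 library (adjusted p up to 0.115), and in M2 without Warm M2 1, Warm M2 2, bFKB1 M2 1 or bFKB1 M2 3 (up to 0.0837).

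Prdx1, an abundant peroxiredoxin of the cytosol, was among the members with the clearest separation. At chromosome 4, 116685544-116700822 (plus strand), it had 317, 460.2 and 425 CPM in Cold M1 and 494, 428 and 409 CPM in bFKB1 M1, against 209, 228 and 209 CPM in Warm M1. In M2 it had 336, 314 and 259 CPM in Cold and 416, 305 and 392 CPM under bFKB1, against 189.6, 179 and 199 CPM in Warm. All treated libraries exceeded all Warm ones in both populations. Prdx1 rose by 0.88 in Cold M1 (SE 0.12, edgeR adjusted p = 0.000502), 1.05 in bFKB1 M1 (SE 0.10, 0.000509), 0.61 in Cold M2 (SE 0.12, 0.00952) and 0.95 in bFKB1 M2 (SE 0.10, 0.000543). Only the Cold M2 call was lost in any omission, without Warm M2 2 (adjusted p = 0.0503).

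Its partner Srxn1 (chromosome 2, 152105516-152111376, plus strand) had 45.0, 45.7 and 37.3 CPM in Cold M1 and 42.0, 37.1 and 39.8 CPM in bFKB1 M1, against 17.6, 22.0 and 20.2 CPM in Warm M1. M2 macrophages had 31.4, 30.7 and 33.5 CPM in Cold and 38.9, 32.1 and 52.9 CPM under bFKB1, against 25.6, 22.1 and 28.5 CPM in Warm. The gap to Warm was wide in M1 and narrow in M2. Srxn1 rose by 1.09 in Cold M1 (SE 0.12, edgeR adjusted p = 0.00022), 1.00 in bFKB1 M1 (SE 0.16, 0.00238) and 0.69 in bFKB1 M2 (SE 0.16, 0.0274), and its value in Cold M2 was 0.26 (95% interval 0.03 to 0.49, 0.194). The bFKB1 M2 call was lost without Warm M2 1, Warm M2 2, bFKB1 M2 1 or bFKB1 M2 3 (adjusted p up to 0.101).

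Nqo1, whose product reduces quinones with both electrons at once, was scarce. Nqo1 had the largest fold change of the 10 genes in the macrophage cold comparisons, while Akr1b8 had it under bFKB1. It lies on chromosome 8 (107388225-107403206, minus strand) and had 9.79, 9.31 and 5.41 CPM in Cold M1 and 3.74, 2.08 and 3.09 CPM in bFKB1 M1, against 0.793, 1.03 and 0.920 CPM in Warm M1. Levels in M2 were 2.31, 2.78 and 1.72 CPM in Cold and 2.86, 2.35 and 3.17 CPM under bFKB1, against 0.978, 0.673 and 0.906 CPM in Warm. The Cold M1 libraries stood above every other library of the study, the progenitors included, where the range was 3.63 to 5.18 CPM in Cold AP and 3.18 to 3.68 CPM in Warm AP. Nqo1 rose by 3.14 in Cold M1 (SE 0.28, edgeR adjusted p = 0.00012), an 8.82-fold difference, and by 1.71 in bFKB1 M1 (SE 0.25, 0.00151). In M2 it rose by 1.34 in Cold (SE 0.29, edgeR adjusted p = 0.0174) and by 1.69 under bFKB1 (SE 0.25, 0.00376). The Cold M2 call was lost without Cold M2 2 or Warm M2 2 (adjusted p up to 0.0779).

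Akr1b8 encodes an aldo-keto reductase of lipid aldehydes, also known as the fibroblast growth factor-regulated protein. At chromosome 6, 34354119-34368463 (plus strand), it had 98.1, 162 and 138 CPM in Cold M1 and 176, 174 and 155 CPM in bFKB1 M1, against 31.4, 45.9 and 31.4 CPM in Warm M1. In M2 it had 155, 135 and 105 CPM in Cold and 236, 154 and 258 CPM under bFKB1, against 48.7, 55.1 and 50.9 CPM in Warm. The highest Warm library of each population was below the lowest treated one by a wide margin. Akr1b8 rose by 1.86 in Cold M1 (SE 0.19, edgeR adjusted p = 0.000158), 2.23 in bFKB1 M1 (SE 0.18, 0.000448), 1.29 in Cold M2 (SE 0.18, 0.00212) and 2.05 in bFKB1 M2 (SE 0.18, 0.000221). No omission of a library ended any of these 4 calls. Akr1b8 has close relatives (Akr1b7 and Akr1b10 are rows of the same tables), Txn1 and Prdx1 have processed pseudogenes, and exons of Gclm overlap the pseudogene Gm6061 and, on the other strand, Gm17494, which are not rows of the tables. How the authors' counting shared reads among such copies is not given in the sources used here.

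Nfe2l2, the regulator, had the fold change closest to 0 of the 10 genes in all 4 macrophage comparisons. Per kilobase it was the most abundant of the 10 in Warm M1, Warm M2 and Cold M2. Txn1 exceeded it in Cold M1, bFKB1 M1, bFKB1 M2 and both progenitor groups. Nfe2l2 was also below Prdx1 in both bFKB1 groups. In bFKB1 M2 Nfe2l2 (116 CPM per kb) was below Akr1b8 too, which was highest there (144). Located on chromosome 2 (75675513-75704641, minus strand), it had 452, 546 and 589.7 CPM in Cold M1 and 502, 522 and 549 CPM in bFKB1 M1, against 521, 493 and 524 CPM in Warm M1. M2 values were 461, 403 and 431 CPM in Cold and 403, 455 and 468 CPM under bFKB1, against 389.8, 446 and 420.1 CPM in Warm. The groups overlapped within each population. Its log2 fold change was 0.03 (95% interval -0.16 to 0.21) in Cold M1, 0.04 (-0.11 to 0.20) in bFKB1 M1, -0.02 (-0.20 to 0.16) in Cold M2 and 0.07 (-0.09 to 0.22) in bFKB1 M2, with edgeR adjusted p from 0.649 to 0.915.

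**Figure D2:**
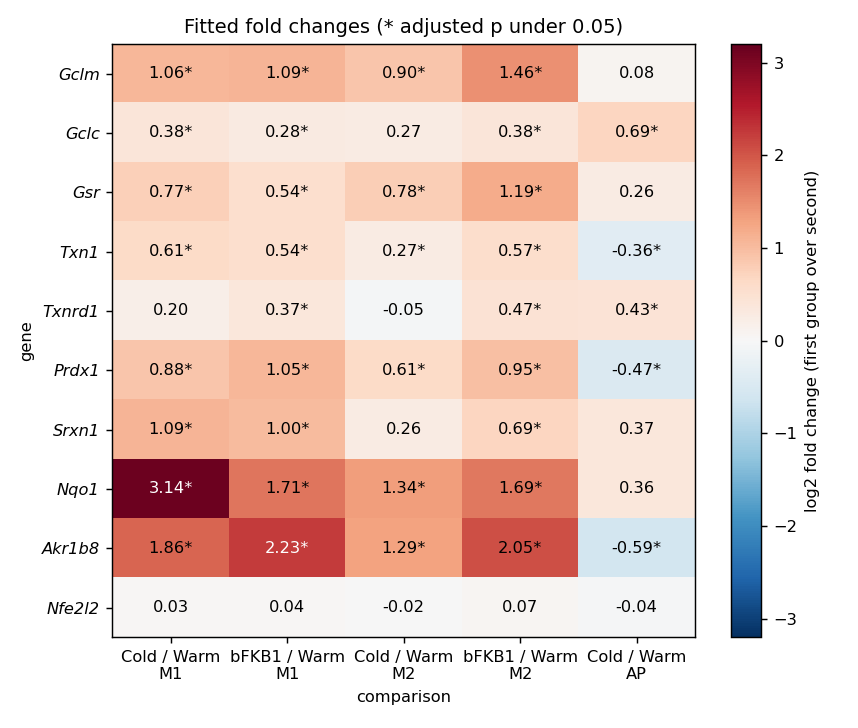
Fitted log2 fold changes of the 10 genes (rows) in Cold or bFKB1 against Warm in M1 and M2 and in Cold against Warm in AP (columns), with an asterisk where adjusted p was under 0.05. The macrophage columns hold 8, 9, 6 and 9 asterisks, all on positive values, and the AP column holds 2 on positive and 3 on negative values.

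Set against all genes, the counts read as follows, as a description of a set chosen with earlier results known. In bFKB1 M2, 9 of the 10 genes rose and none fell, with a median of 0.82, where 5.26% of 12734 genes rose, 3.01% fell and the median was 0.00. In bFKB1 M1, 9 rose and none fell (median 0.77), where 12.2% of genes rose and 9.45% fell (median -0.02). In Cold M2, 6 rose and none fell (median 0.44), where 4.41% of 12981 genes rose and 5.69% fell (median 0.00). In Cold M1, 8 rose and none fell (median 0.82), where 22.4% of genes rose and 21.5% fell (median -0.03). By separation on CPM, all 3 treated libraries lay above all 3 Warm ones for 9 of the 10 under bFKB1 in each population, where this held for 16.8% of genes in M1 and 19.7% in M2. Under cold it held for 8 of the 10 in each population, against 25.7% of genes in M1 and 27.6% in M2. The Cold and bFKB1 comparisons share the Warm libraries, so their values stand side by side and are no independent repeats. Over all genes the called count was 394 to 553 with 1 library left out in bFKB1 M2, against 1053 with all, 1449 to 3809 in bFKB1 M1, against 2755, and 531 to 937 in Cold M2, against 1312. The count of members called in Cold M2 dropped to 2 (Akr1b8 and Gclm) without Warm M2 2 and to 3 without Cold M2 2.

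The difference between the populations in their answer to cold was tested directly for each gene. The cold effect in M2 minus that in M1 was -1.80 for Nqo1 (SE 0.41, edgeR adjusted p = 0.0463) and -0.83 for Srxn1 (SE 0.17, 0.0388). Both cold effects were smaller in M2, where Nqo1 passed the test against Warm and Srxn1 did not. By this test the effect was lower in M2 for 1.2% of genes and higher for 1.11%. That count over all genes, 300, ranged over omissions from 23 without Cold M2 2 to 1982 without Warm M1 2. For Txn1 the difference was -0.34 (0.0765) and for Akr1b8 -0.57 (0.191), and for Gsr it was 0.01 with a 95% interval of -0.42 to 0.45. These calls rested on all 12 libraries. The Srxn1 call was kept only when Cold M1 1, Cold M1 3 or Warm M1 2 was the library left out. The Nqo1 call was kept only without Cold M1 3 or Warm M1 2. In the other omissions adjusted p reached up to 0.113 for Nqo1 and 0.103 for Srxn1, while the differences ran over -2.04 to -1.62 and -0.92 to -0.75. With expected progenitor counts taken off, 4 members were lower, Nqo1 (-2.19), Srxn1 (-1.02), Prdx1 (-0.54) and Txnrd1 (-0.49). Over all genes 935 were called in either direction in that setting, against 300 with the counts as deposited.

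For bFKB1 the answer of the populations was not found to differ. None of 12734 genes was called for the bFKB1 effect in M2 minus that in M1 by edgeR's quasi-likelihood test, 976 had an unadjusted p under 0.05, and DESeq2 called 76. Among the members the largest difference was that of Gsr, 0.65 (95% interval 0.30 to 1.00, edgeR adjusted p = 0.417). Akr1b8 rose 4.68-fold in M1 and 4.14-fold in M2 (difference -0.18, 95% interval -0.66 to 0.30), and Nqo1 3.27-fold and 3.23-fold (-0.02, -0.72 to 0.68).

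**Figure D3:**
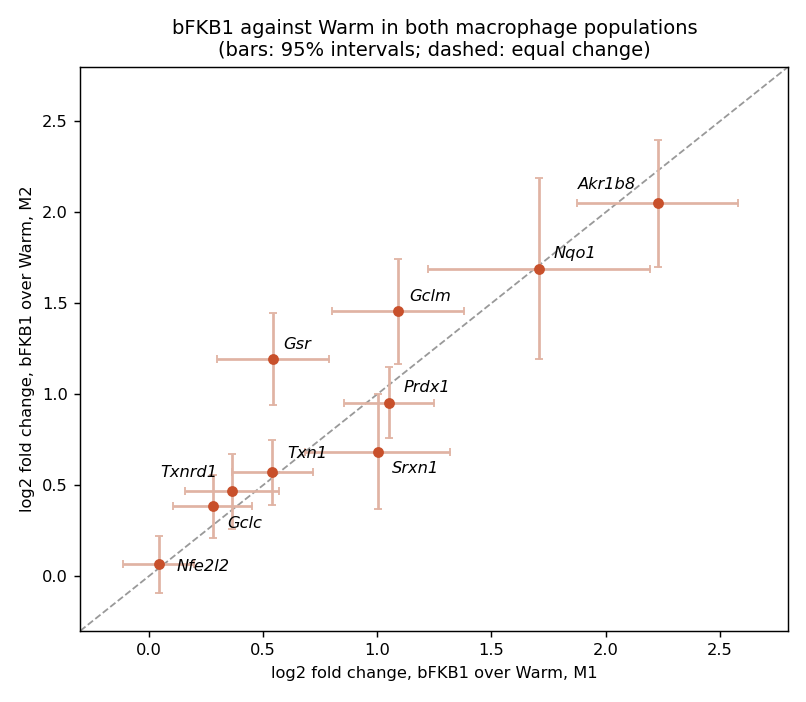
Log2 fold change of bFKB1 over Warm for the 10 genes in M1 (horizontal) and in M2 (vertical), with 95% intervals as bars and a dashed line where both would be equal. Akr1b8 and Nqo1 lie farthest out and near the line, Gsr lies above it (0.54 in M1 and 1.19 in M2), and Nfe2l2 lies near 0 in both.

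The 2 treatments were also set against each other. In M1, bFKB1 and Cold libraries overlapped for 9 of the 10 genes. The exception was Nqo1, which was lower under bFKB1 than in Cold, at -1.45 (SE 0.25, edgeR adjusted p = 0.00444), in every omission of a library too, where 15.2% of 13086 genes were lower and 11.1% higher. Its bFKB1 libraries all lay below its Cold libraries on CPM, which held for 21.4% of genes. In M2 the fitted values of all 10 were higher under bFKB1 than in Cold, and 2 passed: Txnrd1 (0.53, edgeR adjusted p = 0.018) and Akr1b8 (0.77, 0.0392), where 3.33% of genes were higher and 1.07% lower. The Txnrd1 call was lost without Cold M2 2, Cold M2 3 or bFKB1 M2 3 (adjusted p up to 0.127). The Akr1b8 call was lost without Cold M2 2, Cold M2 3, bFKB1 M2 1 or bFKB1 M2 3 (up to 0.201). DESeq2 called 4 of the 10 in M2, with Gclm and Txn1 added. Its count over all genes for this comparison is not given here, so the added calls have no background.

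The resting difference between the populations was modest and went both ways. In Warm mice M1 held more Gsr (30.2 ± 4.97 CPM in M1 and 17.4 ± 0.954 in M2, SD, n = 3 each; 0.70, edgeR adjusted p = 0.00438) and more Txn1 (123 ± 2.14 and 84.0 ± 4.88; 0.46, 0.000351). It held less Srxn1 (-0.44, edgeR adjusted p = 0.0105) and less Akr1b8 (-0.60, 0.0192). That is 2 higher and 2 lower of 10, where 22.5% of genes were higher and 22.8% lower. Without Warm M2 3 the Srxn1 call was lost (adjusted p = 0.073), and the Akr1b8 call without Warm M1 1, Warm M1 3, Warm M2 2 or Warm M2 3 (up to 0.0696).

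In Cold mice M1 was called above M2 for 8 of the 10 genes, where 27.8% of all genes were higher and 26.9% lower. Nqo1 led with 1.81 (SE 0.26, edgeR adjusted p = 0.000149), then Txn1 (0.80, 4.77e-06), Gsr (0.69, 0.0034) and Srxn1 (0.38, 0.0159). Prdx1 (0.36), Txnrd1 (0.34), Gclc (0.34) and Nfe2l2 (0.25) were smaller differences. The Nfe2l2 call was lost without the filter on low counts. It was also lost without Cold M1 2, Cold M1 3, Cold M2 2 or Cold M2 3 (adjusted p up to 0.15). The Prdx1 call was lost without Cold M1 2, Cold M1 3 or Cold M2 3 (up to 0.0983). For both genes the M1 and M2 libraries overlapped on CPM. The count was 4 without Cold M1 2 or Cold M2 3. Gclm (0.14, 95% interval -0.19 to 0.47) and Akr1b8 (-0.04, -0.38 to 0.31) did not pass. Under bFKB1, Txn1 was higher in M1 (0.43, edgeR adjusted p = 0.00242) and Gclm lower (-0.39, 0.0425), where 23% of genes were higher and 24.6% lower. The Gclm call was kept only when bFKB1 M2 2 was the library left out (adjusted p up to 0.188) and lost with expected progenitor counts taken off (0.0666). With M1 and M2 of the same number paired as a block, Nfe2l2 was called as well (0.18, edgeR adjusted p = 0.0489).

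Progenitors were set against macrophages in Warm mice. In Warm mice the Nqo1 level was 3.68, 3.30 and 3.18 CPM in AP, against 0.793, 1.03 and 0.920 CPM in M1, a difference of 2.24 (edgeR adjusted p = 9.57e-07). Txn1 (1.42, edgeR adjusted p = 3.56e-09), Akr1b8 (1.39, 1.74e-06) and Srxn1 (0.40, 0.0119) were also higher in AP than in M1. Txnrd1 (-1.20), Gclc (-0.52), Gsr (-0.49) and Nfe2l2 (-0.24) were lower (edgeR adjusted p from 1.39e-07 to 0.0274). That made 4 higher and 4 lower of 10, near the shares of all genes, where 42.7% of 13687 genes were higher and 39.3% lower. These values depend on the scaling between cell types. On CPM the Srxn1 libraries of Warm AP and Warm M1 overlapped, with means of 20.4 and 19.9. Gclm and Prdx1 were lower on CPM in every Warm AP library than in every Warm M1 library. Their fitted values were -0.03 and 0.01. Against M2, AP was higher for Nqo1 (2.24), Txn1 (1.87) and Akr1b8 (0.78) and lower for Txnrd1 (-1.12) and Gclc (-0.31, edgeR adjusted p = 0.0479), where 42.1% of genes were higher and 39.5% lower. By group means the Txn1 level was highest and the Txnrd1 level lowest in the progenitor groups. The calls of Nfe2l2 and Srxn1 against M1 and of Gclc against M2 did not hold in every omission (adjusted p up to 0.0947, 0.0577 and 0.214): Nfe2l2 lost it without Warm M1 1, Warm M1 3 or Warm AP 2, Srxn1 without Warm M1 1 or Warm AP 3, and Gclc without Warm AP 2, without any 1 of the Warm M2 libraries, and with no filter on low counts.

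Under cold the members went both ways in progenitors. Gclc had 48.9, 34.8 and 32.9 CPM in Cold AP, against 25.0, 19.1 and 24.2 CPM in Warm AP, and rose by 0.69 (SE 0.16, edgeR adjusted p = 0.0188). Txnrd1 had 88.4, 95.6 and 80.5 CPM in Cold AP, against 58.7, 55.9 and 71.6 CPM in Warm AP, and rose by 0.43 (SE 0.13, 0.0359). Akr1b8 had 52.0, 52.5 and 51.1 CPM in Cold AP, against 80.4, 80.1 and 61.7 CPM in Warm AP, with a log2 fold change of -0.59 (edgeR adjusted p = 0.0106). Prdx1 (122, 137 and 127 CPM in Cold AP, against 181, 193 and 135 CPM in Warm AP) had -0.47 (edgeR adjusted p = 0.0284). For Txn1 the values were 209, 221 and 201 CPM in Cold AP, against 289, 269 and 209.6 CPM in Warm AP, and the log2 fold change was -0.36 (edgeR adjusted p = 0.0477). All 3 fell, and for Prdx1 and Txn1 Warm AP 3 overlapped the Cold libraries. The Txn1 call was lost under RLE scaling and without the filter on low counts. Gclm (0.08), Gsr (0.26), Nqo1 (0.36), Srxn1 (0.37) and Nfe2l2 (-0.04) did not pass. By separation on CPM 5 were higher in all Cold libraries and 1 lower, where 33% of genes were higher and 17.4% lower. By the fit 2 were higher and 3 lower of 10, where 18.4% of 12910 genes were higher and 16.6% lower. The count was 0 without Cold AP 3 or Warm AP 2, 2 without Warm AP 1, 3 without Cold AP 1 or Cold AP 2 and 6 without Warm AP 3, and that of all genes ran from 489 to 6437.

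The cold effect in AP minus that in M2 was -1.86 for Akr1b8 (SE 0.24, edgeR adjusted p = 0.000699), -1.08 for Prdx1 (0.00277), -0.80 for Gclm (0.0164) and -0.61 for Txn1 (0.00844). Txnrd1 had a higher effect in AP (0.49, edgeR adjusted p = 0.0438). So 4 members were lower and 1 higher, where 10.1% of genes were lower and 12.2% higher. Without Warm M2 2 or 3, Cold M2 2 or 3, Cold AP 1 or 2 or Warm AP 1 or 2, and with no filter on low counts, Txnrd1 lost its call (adjusted p up to 0.118).

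Progenitor marker RNA was higher in Cold M1 than in Warm M1, and Nqo1, Txn1 and Akr1b8 were higher in Warm progenitors than in Warm M1, so the Cold M1 comparison was repeated with an estimate of that RNA taken off. What was taken off each library was its marker share times the mean level in its condition's progenitors (Warm progenitors for bFKB1, which has none of its own). Of the Nqo1 level of Cold M1, 0.644 to 1.92 CPM was expected from progenitors, and 4.76 to 8.36 CPM was left. For Txn1 the expected part came to as much as 51.5% of the Cold M1 level. With these counts taken off, the rises in Cold M1 were 3.58 for Nqo1, 2.17 for Akr1b8, 1.32 for Gclm, 1.28 for Srxn1, 1.17 for Prdx1 and 1.00 for Gsr. They were 0.60 for Txn1 and 0.52 for Gclc, and Txnrd1 passed as well (0.44, edgeR adjusted p = 0.00382), which made 9 of 10. Nfe2l2 came to 0.17 (0.12). Over all genes 4352 were called in either direction in that setting, against 5705 with the counts as deposited. The single markers put the share of Cold M1 1 anywhere between 15.1% and 82.8%, so the subtraction is rough. Without Cold M1 1, the library with the highest share, all 8 calls were kept. The Cold M1 libraries that stayed had shares of 20.8% and 14.0%, against at most 7.18% in Warm M1. That omission therefore does not remove the difference in progenitor marker RNA.

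**Figure D4:**
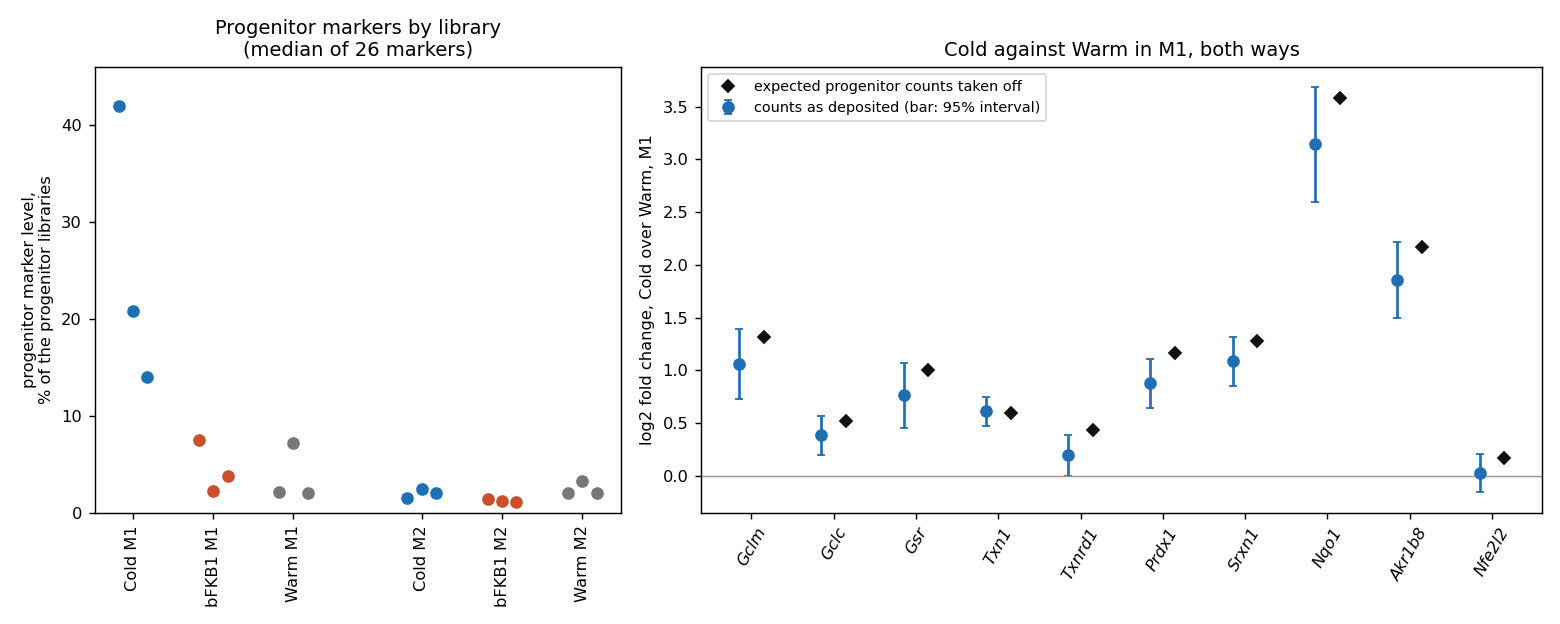
Left, the progenitor marker level of each macrophage library as a percentage of that in progenitor libraries (median of 26 markers), with Cold M1 between 14.0% and 41.9% and all other libraries at 7.54% or below. Right, log2 fold changes of Cold over Warm in M1 from the counts as deposited (circles, 95% intervals) and with expected progenitor counts taken off (diamonds), which lie at or above the circles for 9 of the 10 genes and just below for Txn1.

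Beyond the 10 genes, 115 genes of the same chemistry were read in 6 lists. In Cold M1, 45 rose and 14 fell of 111 tested, in bFKB1 M1 36 rose and 5 fell of 110, in Cold M2 18 rose and 5 fell of 111, and in bFKB1 M2 26 rose and 2 fell of 110. In Cold AP 15 rose and 27 fell of 109. The shares of all genes higher and lower were 22.4% and 21.5% in Cold M1, 12.2% and 9.45% in bFKB1 M1, 4.41% and 5.69% in Cold M2, 5.26% and 3.01% in bFKB1 M2 and 18.4% and 16.6% in Cold AP, and the counts of each list below are to be read against them. With expected progenitor counts taken off, 42 rose and 11 fell of 108 in Cold M1. Over all genes 4352 were called in either direction in that setting, against 5705 with the counts as deposited. The shares above belong to the counts as deposited, and not to any list count with expected progenitor counts taken off. Shares by direction in that setting are not given here.

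Other known NRF2 targets were the list with the largest share higher in the macrophages. Of them 15 of 23 rose in Cold M1, 13 of 22 in bFKB1 M1, 7 of 23 in Cold M2 and 12 of 22 in bFKB1 M2, with 0, 1, 1 and 1 lower. Catalase (Cat) rose in all 4, by 0.71 in Cold M1, 0.73 in bFKB1 M1, 0.69 in Cold M2 and 0.90 in bFKB1 M2 (edgeR adjusted p from 0.000156 to 0.0017). The ferritin heavy chain gene Fth1 rose by 0.44 in Cold M2 (edgeR adjusted p = 0.0102) and 0.55 in bFKB1 M2 (0.000882). Blvrb, a biliverdin reductase, rose by 1.10 in bFKB1 M1 (0.000657), and the carbonyl reductase Cbr3 by 1.43 in Cold M1 (0.000195, and 1.32 with expected progenitor counts taken off) and 1.02 in bFKB1 M1 (0.000657). The Blvrb mean was also 113 CPM in Cold M1, against 59.5 CPM in Warm M1. In M2 it was 260 CPM in Cold and 262 CPM under bFKB1, against 191 CPM in Warm. Hmox1, the classical heme-degrading target, was not among the risers, with 0.00 in Cold M1, 0.13 in bFKB1 M1, 0.26 in Cold M2 and 0.07 in bFKB1 M2 (edgeR adjusted p from 0.254 to 0.988), chosen here after its values were seen. Pir rose in Cold M1 (1.81) but not with expected progenitor counts taken off (0.38, edgeR adjusted p = 0.725).

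Glutathione enzymes outside the set also moved. In Cold M1 17 of 33 rose and 1 fell. Once expected progenitor counts were subtracted, it was 12 and 4 of 31. Of the 33 tested as deposited, the counts were in bFKB1 M1 8 and 1, in Cold M2 5 and 0, in bFKB1 M2 7 and 0. The transferase Gsta3 rose by 4.83 in Cold M1 (mean 13.6 against 0.464 CPM in Warm M1, edgeR adjusted p = 8.65e-05; still called with expected progenitor counts taken off, 6.19e-05), 2.61 in bFKB1 M1 (0.00372) and 2.50 in Cold M2 (0.0036). The microsomal transferase Mgst1 rose by 1.92 in Cold M1, and by 1.45 with expected progenitor counts taken off (edgeR adjusted p = 0.00106), and by 0.97 in bFKB1 M1 (0.00193). It also rose by 0.66 in Cold M2 (edgeR adjusted p = 0.0284). Esd, which frees glutathione from S-formylglutathione, rose by 0.76 in bFKB1 M1 (0.00152) and 0.82 in bFKB1 M2 (0.0023). The deglutathionylating glutaredoxin Glrx fell in Cold M1 (-0.63, edgeR adjusted p = 0.00537) and in bFKB1 M1 (-0.25, 0.0488). The transferases are families of near copies, among which counting may have split reads.

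Among the 14 regulators of NRF2, Bach1, a repressor that competes for the same elements, was lower in all 4 comparisons. Its log2 fold change was -0.33 in Cold M1, -0.37 in bFKB1 M1, -0.47 in Cold M2 and -0.39 in bFKB1 M2 (edgeR adjusted p from 0.00426 to 0.0081), but with expected progenitor counts taken off the Cold M1 value was -0.13 (0.155). Sqstm1, whose product p62 binds KEAP1, rose by 0.44 in Cold M1 (edgeR adjusted p = 0.00606), 0.40 in bFKB1 M1 (0.0164) and 0.39 in Cold M2 (0.037). Its value in bFKB1 M2 was 0.28 (0.103). As a list the regulators did not exceed the shares of all genes in Cold M1, with 3 higher and 2 lower. They went 3 higher and 2 lower in bFKB1 M1, 1 and 1 in Cold M2, 0 and 1 in bFKB1 M2, and 6 and 1 in Cold AP.

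The thioredoxin and peroxiredoxin list went 6 higher and 3 lower of 19 in Cold M1, 5 and 0 in bFKB1 M1, 3 and 1 in Cold M2 and 1 and 0 in bFKB1 M2. The mitochondrial pair Txn2 (-0.48) and Txnrd2 (-0.37) fell in Cold M1 (edgeR adjusted p = 0.00181 and 0.00498), where cytosolic Txn1 rose. With expected progenitor counts taken off, Txn2 was still lower (-0.33, edgeR adjusted p = 0.00275), Txnrd2 was not called (-0.15, 0.102), and the list went 5 higher and 1 lower. In Cold AP 2 rose and 8 fell. Of the 12 NADPH suppliers, cytosolic isocitrate dehydrogenase (Idh1) rose in all 4 macrophage comparisons by 0.23 to 0.31 (edgeR adjusted p from 0.00318 to 0.0133), and transaldolase (Taldo1) rose in bFKB1 M1 (0.33) and bFKB1 M2 (0.52). The list went 3 higher and 3 lower in Cold M1, near the shares of all genes, and 5 and 1 there with expected progenitor counts taken off. It went 5 and 1 in bFKB1 M1, 1 and 1 in Cold M2 and 3 and 0 in bFKB1 M2. Of the superoxide handling genes, 1 rose and 5 fell of 10 in Cold M1, among them mitochondrial superoxide dismutase Sod2 (-0.47) and the NADPH oxidase subunit Ncf4 (-0.50). With expected progenitor counts taken off, 2 rose and 3 fell, Sod2 was still lower (-0.27, edgeR adjusted p = 0.00279) and Ncf4 was not called (-0.10, 0.199). The 1 that rose in the counts as deposited, Sod3 (2.29), is the secreted dismutase, and its value was 0.00 with expected progenitor counts taken off (edgeR adjusted p = 1). The list went 2 and 0 in bFKB1 M1, 1 and 1 in Cold M2 and 3 and 0 in bFKB1 M2.

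**Figure D5:**
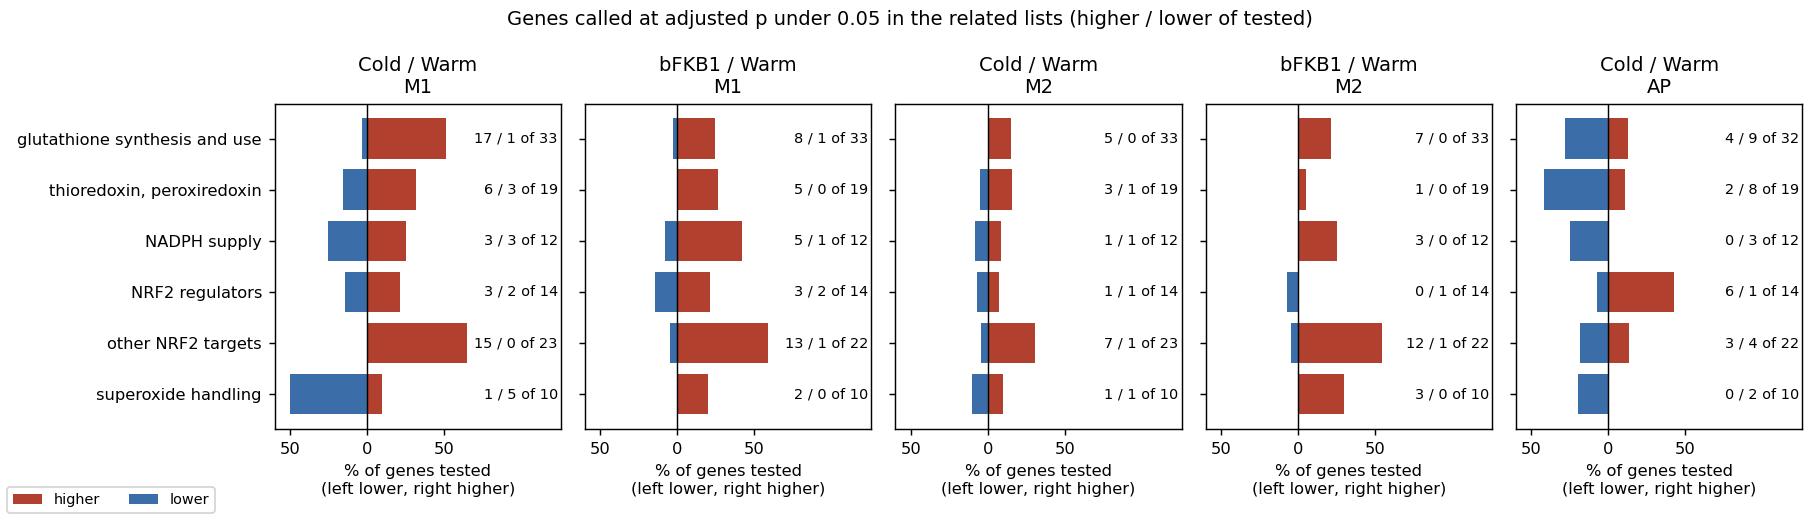
Percentage of the tested genes of each of 6 related lists called higher (right, red) or lower (left, blue) at adjusted p under 0.05 in Cold or bFKB1 against Warm in M1 and M2 and Cold against Warm in AP, with the counts printed as higher / lower of tested. Other NRF2 targets are higher for 15 of 23, 13 of 22, 7 of 23 and 12 of 22 in the macrophage panels, and in AP more genes are lower than higher in 5 of the 6 lists.

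The genes whose levels ran most like a member's over the 24 libraries were found by Pearson's r of log2(CPM + 1) among 10837 genes. Across both cell types and all treatments, Gclm was most like Cat (r = 0.93), then Klc2 (0.90) and Fth1 (0.90). Prdx1 was most like Fth1 (0.98), then Klc2 (0.95), and Nqo1 most like Frk (0.86), Gsta3 (0.85) and Htatip2 (0.85). Txnrd1 followed Mgat5 (0.98) and Txn1 followed Itfg1 (0.98) and the cathepsin gene Ctsk (0.97). Between Txnrd1 and Txn1 r was -0.51. For Srxn1 the nearest was Vat1 (0.89), for Akr1b8 Tmem66 (0.86), for Gclc Dtx4 (0.90), for Gsr Serpinb6b (0.93) and for Nfe2l2 Cd101 (0.97). The points share libraries, populations and treatments, so these values describe the profile over groups and carry no test.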

How the data were processed

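RNA of FACS-sorted M1 and M2 macrophages and adipose progenitors was sequenced as poly-A libraries, 24 in 8 groups of 3. The authors deposited raw read counts per gene in 2 tables, one of them for bFKB1. Per the submitters' processing notes reads were aligned with GSNAP to GRCm38 after CASAVA 1.8, with SAMtools also named for the Cold and Warm table. No source used here names the counting program or its annotation. Strand was not assumed. In both tables every column was mapped to a sample. For bFKB1 the numbers in the sample titles were used, which differ from the replicate numbers in another label.

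Rows named as dates (27, with 0.148% to 0.192% of counts) were dropped. Counts were fitted in R 4.3.3 with edgeR 4.0.16 (filterByExpr, TMM scaling, quasi-likelihood F test, Benjamini-Hochberg over all genes tested, threshold 0.05). Cold and Warm macrophages, bFKB1 and Warm macrophages, bFKB1 and Cold macrophages from all 18 macrophage libraries, progenitors, and all Cold and Warm libraries were 5 separate fits, giving 15 comparisons. The standard error is the log2 fold change divided by the root of F, and intervals are 1.96 standard errors to each side. CPM is the count scaled to the library total, and per-kilobase levels use exon lengths of GENCODE M21. The scripts were tested on simulated data. The libraries held 14374696 to 34600782 counts each, and the number of counts behind a gene sets its counting error.

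Alternatives were DESeq2 1.42.0, RLE scaling, no filter, replicate blocks, expected progenitor counts taken off, and 57 fits without 1 library. Numbers were taken to pair M1 and M2 samples of a condition where all 3 same-numbered pairs had residual correlations above 0.1. This held in Warm (0.177, 0.303 and 0.229) and bFKB1 (0.425, 0.116 and 0.365). That pairing comes from the correlations, not from the labels. Same-numbered bFKB1 and Cold M1 libraries, from different mice, had 0.646, 0.324 and 0.225. There bFKB1 M1 2 and Cold M1 3 reached 0.638, so these numbers are read as names only. The named genes are the 10 members in every comparison, up to 4 called genes with the smallest p per direction of each wider list, and the 3 genes most like each member. The members, lists and tests were chosen with earlier results of these data known.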

Additional observations from a re-analysis of the deposited data

Results flagged for a closer look

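The cold effect differed between populations, by a test of the difference itself, for 7 values. The cold effect in M2 minus that in M1 was -1.80 for Nqo1 and -0.83 for Srxn1, both raised in Cold M1 libraries (9.79, 9.31 and 5.41 CPM for Nqo1 and 45.0, 45.7 and 37.3 CPM for Srxn1, against 0.793, 1.03 and 0.920 and 17.6, 22.0 and 20.2 CPM in Warm M1). Cold M1 also carried the most progenitor marker RNA, and with expected progenitor counts taken off both differences were larger in size, -2.19 for Nqo1 and -1.02 for Srxn1.

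The cold effect in AP minus that in M2 was -1.86 for Akr1b8, -1.08 for Prdx1, -0.80 for Gclm and -0.61 for Txn1, and it was 0.49 for Txnrd1. Akr1b8, Prdx1 and Txn1 were raised in Cold M2 (1.29, 0.61 and 0.27) and lower in Cold AP (-0.59, -0.47 and -0.36). Gclm was raised in Cold M2 (0.90) and had 0.08 in Cold AP. Txnrd1 was raised in Cold AP (0.43) and had -0.05 in Cold M2.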

How the results depend on the processing

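Of 1790 member values recomputed under another setting, 83 changed sign, none of them called in either fit. The count for the cold effect in M2 minus that in M1 was 1 with M1 and M2 of the same number as a replicate block and 4 with expected progenitor counts taken off, against 2. For bFKB1 against Cold in M2 it was 4 with DESeq2 and 1 with the number as a block, against 2. The counts over all genes in those settings are not given here. Leaving out 1 library gave 8 to 8 members called in Cold M1, 2 to 6 in Cold M2, 7 to 8 in bFKB1 M1, 6 to 9 in bFKB1 M2 and 0 to 6 in Cold AP. It gave 0 to 3 for the cold effect in M2 minus M1, 0 to 0 for the bFKB1 effect in M2 minus M1 and 4 to 5 for the cold effect in AP minus M2. It gave 2 to 4 for M1 against M2 in Warm, 4 to 8 in Cold and 1 to 3 under bFKB1. For bFKB1 against Cold it gave 1 to 1 in M1 and 0 to 3 in M2, and for AP 6 to 8 against M1 and 4 to 5 against M2. Where an omission left 2 libraries in a group, the spread was pooled over the fit.

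Over all genes, the count for the cold effect in M2 minus M1 was 1488 with DESeq2 and 935 with expected progenitor counts taken off, against 300. That for the bFKB1 effect in M2 minus M1 was 76 with DESeq2, against 0. For bFKB1 against Cold it was 1617 in M1 with expected progenitor counts taken off, against 3442, and 368 in M2 without the filter, against 576. Leaving out 1 library gave 1309 to 3962 there in M1 and 27 to 787 in M2, and 1614 to 4844 for the cold effect in AP minus M2. In Cold M1 the all-gene count was then 4066 to 6038, against 5705. For M1 against M2 the range was 5038 to 5776 in Warm, 6156 to 7062 in Cold and 5034 to 5473 under bFKB1. For Warm AP it was 10877 to 11253 against M1 and 10814 to 11186 against M2. The bFKB1 effect in M2 minus M1 had 0 to 46.

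Cold samples of M1 and M2 with the same number had residual correlations of -0.367, -0.0879 and -0.163, so there the replicate number is only a name. The same goes for the number between the treatments in M1, M2 and progenitors. With the block, adjusted p was 0.0671 for Txn1 in Cold M2, 0.0602 for Srxn1 in the cold effect in M2 minus M1, 0.0577 for Prdx1 and 0.0876 for Nfe2l2 in M1 against M2 in Cold, 0.0593 for Akr1b8 in bFKB1 against Cold in M2 and 0.0503 for Txnrd1 in the cold effect in AP minus M2. In Warm and bFKB1 the numbers were taken to pair M1 and M2 from the residual correlations alone. There the block added Nfe2l2 in M1 against M2 under bFKB1 (edgeR adjusted p = 0.0489), and it changed no other member's call. Same-numbered bFKB1 and Cold M1 libraries, from different mice, met the same correlation rule, so it does not establish pairing. Counts of 13 to 24 in Warm macrophages limit the precision of Nqo1.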
